A study of Mus musculus with 16 samples.

Results

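The 10 genes described here, *Gas1*, *Cdon*, *Boc*, *Ptch1*, *Hhip*, *Smo*, *Sufu*, *Gli1*, *Gli2* and *Gli3*, encode the receptors, transducers and transcription factors of Sonic hedgehog signaling. They were taken by symbol from the 30386 genes of an expression table of neural stem/progenitor cells (NSPCs) of the mouse subventricular zone (SVZ), and all 10 were found there. In NSPCs carrying a *Dbx2* transgene, *Cdon* mRNA was lower than in NSPCs carrying *GFP*. *Ptch1* was also called lower, but close to the threshold, and the call was lost in 14 of the 16 fits that left out 1 library and in the fit that paired cultures by number. The other 6 genes that could be tested did not pass the test in either direction. The decrease of *Cdon* was found in the cultures numbered 5 to 8 and differed from that in the cultures numbered 1 to 4. *Gli1* and *Hhip*, at 0 in 8 and 12 of the 16 libraries and at most at 4 and 2 reads in any, were too low to test.

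Hedgehog ligands bind the membrane protein Ptch1, which keeps Smo inactive as long as no ligand is present, and Gas1, Cdon and Boc are surface co-receptors that help to present the ligand. Active Smo, at the primary cilium, frees the Gli transcription factors from their inhibitor Sufu. *Gli1*, *Ptch1* and *Hhip* are themselves transcribed in response to Gli activity, and the last 2 act back on the pathway as inhibitors. In the adult SVZ the pathway is known for its role in stem cells of the ventral wall, and in the embryonic neural tube hedgehog signals set the borders of domains of homeodomain factors, to which *Dbx2* belongs.

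The *Dbx2*-NSPCs and *GFP*-NSPCs, with 8 cultures each, came from lines of SVZ cells of C57BL/6 J/Babr mice aged 3 months. The cells had been transfected with a plasmid for constant expression of *Dbx2* or of *GFP* and were kept under puromycin, in floating cultures with EGF and FGF2, so both groups share the growth factors and the selection. The study used 1 pair of lines and another pair from an independent derivation, so the 8 cultures of a group were repeat cultures of these lines. The labels do not say which culture came from which line. Cultures carry a replicate number from 1 to 8, by which they are also compared in the numbers 1 to 4 and 5 to 8. The labels call them biological replicates, and none of the sources used here ties a culture to an animal of its own, so p-values measure the spread between cultures.

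Levels are given in CPM, the 3′-end reads of a gene scaled to the same total in every library. The libraries held 1803928 to 3293285 reads. A single read corresponded to 0.304 to 0.554 CPM and the floor of 3 reads per library to 0.911 to 1.66 CPM. *Dbx2* itself ranged from 114 to 232 CPM in *Dbx2*-NSPCs, and in *GFP*-NSPCs from 89.3 to 171 CPM in the numbers 1 to 4 and from 30.7 to 39.5 CPM in the numbers 5 to 8. Its log2 fold change was 0.54 in the numbers 1 to 4, higher in 4 of 4 numbers. This was not called in the fit without a block (limma, adjusted p = 0.0891) but was in the fit blocked on the number (limma, adjusted p = 0.00557). In the numbers 5 to 8 the log2 fold change of *Dbx2* was 1.99 (limma, adjusted p = 5.67e-08). The 7 markers of neural stem and progenitor cells summed to 5505 to 7082 CPM in *GFP*-NSPCs and 4284 to 5909 CPM in *Dbx2*-NSPCs, while those of microglia, endothelial and mural cells, and fibroblasts summed to at most 1.63, 2.11 and 3.42 CPM. *Stmn2* of the neuronal list, *Mog* of the oligodendrocyte list, and *Aif1* and *Tmem119* of the microglial list were at 0 in all 16 libraries.

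In the comparison over all cultures 2 of the 8 tested genes, 25%, were called at an adjusted p of 0.05, both lower in *Dbx2*-NSPCs. Of all 12533 tested genes 15.8% were called in either direction and 7.78% were called lower. The median log2 fold change of the 8 genes was -0.11, against -0.022 over all tested genes. Within the numbers 1 to 4 no gene of the 8 was called, beside 15.6% of all genes. Of the 8, 0 had an unadjusted limma p under 0.05 there, beside 3636 of all 12533 tested genes. Within the numbers 5 to 8 the same 2 genes, *Cdon* and *Ptch1*, were called lower, beside 23.2% of all genes in either direction and 11.7% lower.

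**Figure D1:**
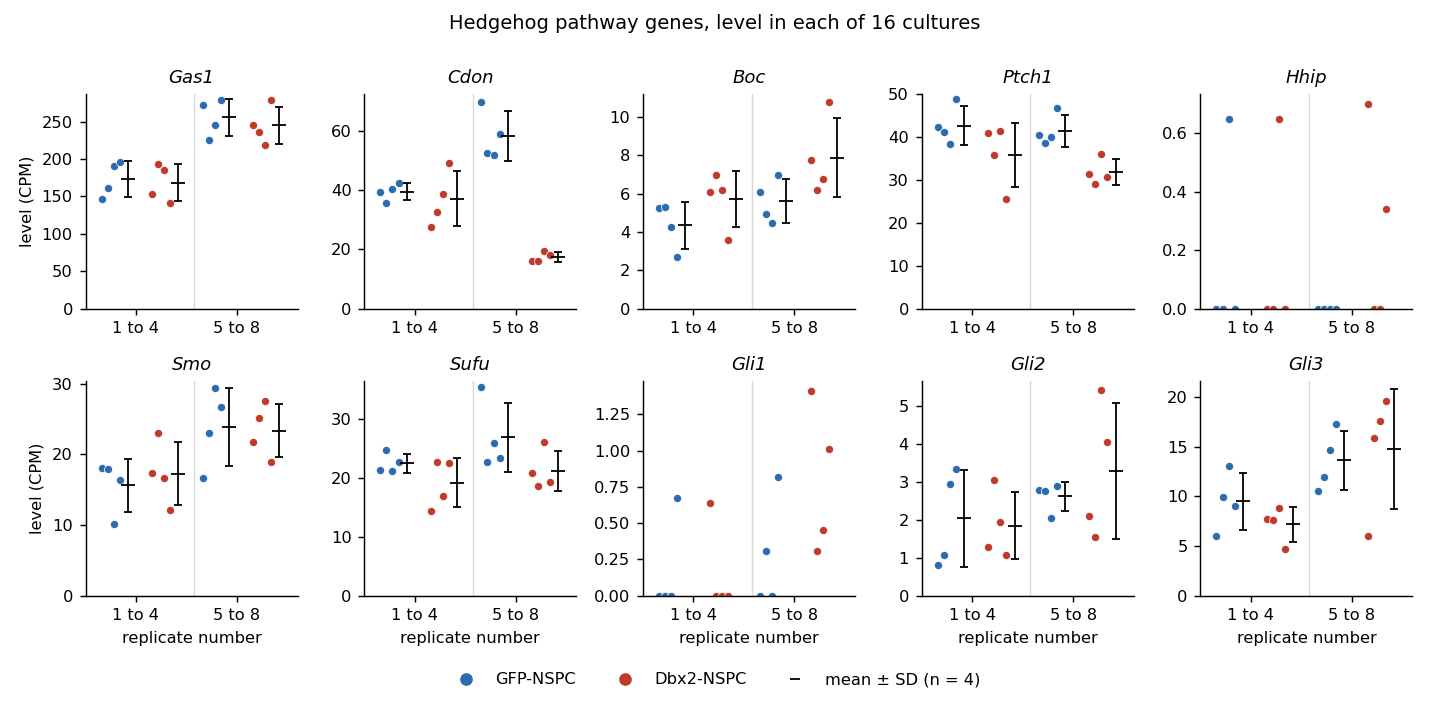
Level in CPM (vertical axes, from 0) of the 10 genes in each of the 16 cultures, by replicate number (1 to 4 and 5 to 8) and transgene (*GFP* blue, *Dbx2* red). Black marks are the mean ± SD of 4 cultures and are left out for *Gli1* and *Hhip*. *Cdon* sits between 16.2 and 19.4 CPM in the *Dbx2*-NSPCs numbered 5 to 8 and between 27.6 and 69.8 CPM in the other 12 cultures.

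Of the 3 co-receptors, *Cdon* showed the largest difference among the 8 tested genes. The gene, ENSMUSG00000038119, lies on the plus strand at chr9:35421128-35507652 (GRCm38, GENCODE M21) and encodes a transmembrane protein of the immunoglobulin superfamily. Over all cultures it ranged from 35.6 CPM through a median of 47.1 to 69.8 CPM in *GFP*-NSPCs, and from 16.2 through a median of 23.5 to 49.2 CPM in *Dbx2*-NSPCs. The groups overlapped through the numbers 1 to 4. *Cdon* changed by a log2 fold change of -0.91 ± 0.22 (SE, n = 8 per group), a level 1.88-fold lower in *Dbx2*-NSPCs, with an adjusted p of 0.00757 in limma.

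In the numbers 1 to 4 *Cdon* stood at 39.5, 35.6, 40.4 and 42.3 CPM in *GFP*-NSPCs and at 27.6, 32.8, 38.8 and 49.2 CPM in *Dbx2*-NSPCs. The means were 39.5 ± 2.82 and 37.1 ± 9.25 CPM (SD, n = 4 each), the ranges overlapped, and the log2 fold change of -0.12 had a 95% confidence interval from -0.49 to 0.26 (limma, adjusted p = 0.702).

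In the numbers 5 to 8 *Cdon* stood at 69.8, 52.5, 51.9 and 58.8 CPM in *GFP*-NSPCs and at 16.2, 16.2, 19.4 and 18.2 CPM in *Dbx2*-NSPCs. Every *Dbx2*-NSPC culture was below every *GFP*-NSPC culture, with means of 17.5 ± 1.60 and 58.2 ± 8.33 CPM (SD, n = 4 each). This was a log2 fold change of -1.70 ± 0.14 (SE), a level 3.25-fold lower, with an adjusted limma p of 1.04e-06. Groups that did not overlap were found for 24.8% of all tested genes in these cultures, and in the lower direction for 12.6%.

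The fold changes of *Cdon* in the numbers 5 to 8 and 1 to 4 differed by -1.58 ± 0.23 on the log2 scale (SE, 95% confidence interval from -2.05 to -1.12; limma interaction, adjusted p = 2.08e-05). This was the only one of the 8 tested genes called for that difference, beside 9.44% of all genes, and the others had adjusted p values of 0.690 to 0.972. Levels differed between the numbers in both groups. From the numbers 1 to 4 to the numbers 5 to 8 the mean of *Cdon* was 1.48 times as high in *GFP*-NSPCs and 0.472 times as high in *Dbx2*-NSPCs, without overlap in either group. The share of all tested genes without such overlap between the numbers was not counted.

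Other measures also differed between the numbers, and 9.44% of all tested genes were called for the difference in fold change. *Dbx2* was higher in the *GFP*-NSPCs numbered 1 to 4 than in those numbered 5 to 8, as given above, and its own fold change differed between the numbers by 1.45 on the log2 scale (limma, adjusted p = 1.04e-04). The summed neuroblast and neuron markers stood at 1218 to 1293 CPM in *GFP*-NSPCs and 767 to 906 CPM in *Dbx2*-NSPCs of the numbers 5 to 8, and at 840 to 940 and 705 to 735 CPM in the numbers 1 to 4. *Map2* made up most of that sum, at 739 to 1278 CPM in the numbers 5 to 8. The 2 of 5 tested markers called for the difference between the numbers, *Dcx* and *Rbfox3*, went the other way, higher in *Dbx2*-NSPCs in the numbers 5 to 8 and lower in the numbers 1 to 4. *Dcx* was at most at 0.82 CPM in *GFP*-NSPCs and at 3.52 to 5.42 CPM in *Dbx2*-NSPCs of the numbers 5 to 8, and at 1.61 to 6.84 and at most 0.33 CPM in the numbers 1 to 4. The summed astrocyte markers stood at 347 to 423 CPM in *GFP*-NSPCs and 777 to 889 CPM in *Dbx2*-NSPCs of the numbers 5 to 8, and at 520 to 743 and 543 to 701 CPM in the numbers 1 to 4, with 1 of 5 markers, *Aldoc*, called for the difference. Of the neural stem and progenitor cell list 1 of 7 markers, *Nes*, was called for the difference. The list summed to 5505 to 5811 CPM in *GFP*-NSPCs and 4284 to 4785 CPM in *Dbx2*-NSPCs of the numbers 5 to 8. In the numbers 1 to 4 it summed to 6594 to 7082 and 4896 to 5909 CPM, so the sum was lower in *Dbx2*-NSPCs in both. The part of these in the *Cdon* result was not tested. In bulk RNA, fewer cells of a type and less RNA per cell cannot be told apart.

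**Figure D2:**
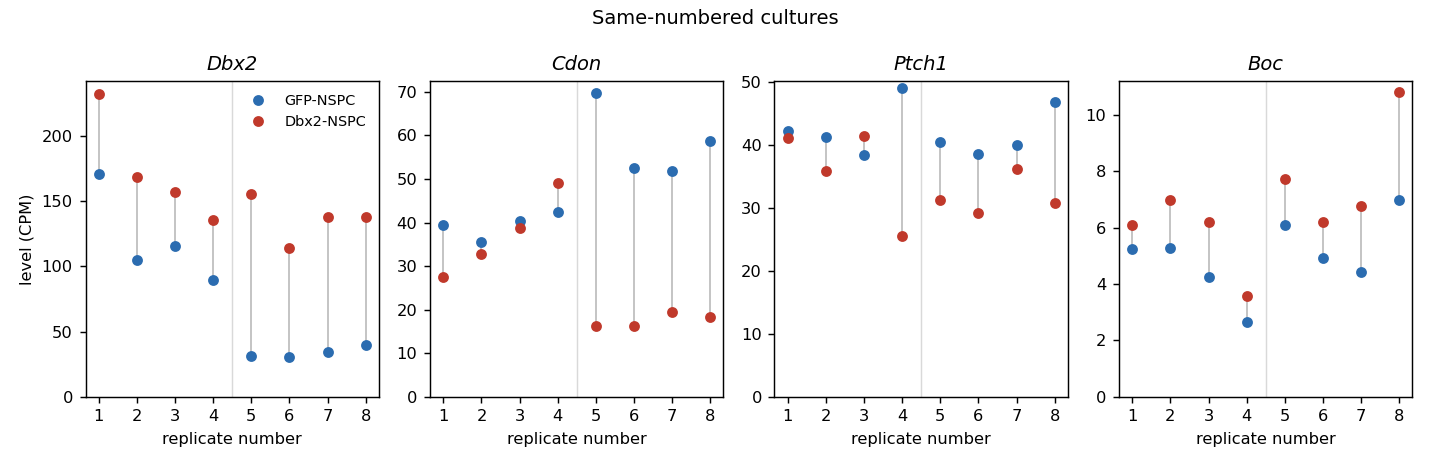
Level in CPM (vertical axes, from 0) of *Dbx2*, *Cdon*, *Ptch1* and *Boc* in each culture against its replicate number (horizontal axis), with *GFP*-NSPCs in blue, *Dbx2*-NSPCs in red and a grey line between cultures of the same number. *Cdon* is lower in *Dbx2*-NSPCs in 7 of 8 numbers and *Boc* is higher in 8 of 8.

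*Boc*, the relative of *Cdon* in the same co-receptor family, lies on the minus strand at chr16:44485049-44558897 (GRCm38). It stood at 2.67 CPM, a median of 5.08 and a highest value of 6.99 CPM in *GFP*-NSPCs, and at 3.59, 6.49 and 10.8 CPM in *Dbx2*-NSPCs. The groups overlapped, although in every one of the 8 numbers the *Dbx2*-NSPC culture was the higher, by 0.20 to 0.59 on the log2 scale. The log2 fold change of 0.40 ± 0.21 (SE, n = 8 per group) did not pass the test (limma, adjusted p = 0.225), nor did it in the fit blocked on the number (limma, adjusted p = 0.110). Its 95% confidence interval ran from -0.047 to 0.85.

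*Gas1*, a membrane-anchored co-receptor, lies on the minus strand at chr13:60174405-60177365 (GRCm38). It ranged from 146 through a median of 211 to 278 CPM in *GFP*-NSPCs and from 141 through a median of 206 to 279 CPM in *Dbx2*-NSPCs. The groups covered nearly the same range, and the log2 fold change was -0.053 with a 95% confidence interval from -0.37 to 0.27 (limma, adjusted p = 0.860). Cultures with the numbers 5 to 8 were higher than those with the numbers 1 to 4 in both groups, with means of 256 ± 24.6 against 173 ± 23.5 CPM in *GFP*-NSPCs and 245 ± 25.0 against 168 ± 24.9 CPM in *Dbx2*-NSPCs (SD, n = 4 each). These sets did not overlap in either group. How many of all tested genes had number sets that lay apart was not counted.

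*Ptch1*, the ligand receptor and a transcriptional target of the pathway, ENSMUSG00000021466, lies on the minus strand at chr13:63508328-63573598 (GRCm38). It ranged from 38.5 through a median of 40.9 to 49.0 CPM in *GFP*-NSPCs and from 25.5 through a median of 33.6 to 41.4 CPM in *Dbx2*-NSPCs. The 2 highest *Dbx2*-NSPC cultures, of the numbers 1 and 3, lay within the range of the *GFP*-NSPCs. *Ptch1* thus had a log2 fold change of -0.32 ± 0.11 (SE, n = 8 per group), a level 1.25-fold lower, with an adjusted limma p of 0.0491, close to the threshold.

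In the numbers 5 to 8 *Ptch1* stood at 40.5, 38.7, 40.0 and 46.9 CPM in *GFP*-NSPCs and at 31.3, 29.2, 36.1 and 30.7 CPM in *Dbx2*-NSPCs. These groups did not overlap, as for 24.8% of all tested genes in these cultures and, in the lower direction, for 12.6%. The log2 fold change was -0.38 ± 0.12 (SE, n = 4 per group), with an adjusted limma p of 0.0418. In the numbers 1 to 4 the levels were 42.3, 41.3, 38.5 and 49.0 CPM in *GFP*-NSPCs and 41.1, 35.8, 41.4 and 25.5 CPM in *Dbx2*-NSPCs, which overlapped, and the log2 fold change was -0.27 ± 0.17 (SE; limma, adjusted p = 0.326). The difference between these fold changes, -0.11 with a 95% confidence interval from -0.55 to 0.33, was not called (limma, adjusted p = 0.827).

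The calls of *Ptch1* depended on the fit. In the blocked fit, which pairs cultures of the same number, its adjusted limma p was 0.0669 over all cultures and 0.0553 in the numbers 5 to 8. Leaving out 1 library lost the call over all cultures for 14 of the 16 libraries, every one except the *Dbx2*-NSPCs of the numbers 1 and 3, with adjusted limma p values from 0.0305 to 0.0970. In the numbers 5 to 8 it was lost for 7 of the 8 libraries, every one except the *Dbx2*-NSPC culture of the number 7. The log2 fold change stayed between -0.37 and -0.27 in the fits over all cultures with 1 library left out. With every library kept, the call over all cultures was lost in 7 of 12 alternative fits, the blocked fit and edgeR without a covariate among them. It stayed with the number set as a covariate, in limma and in edgeR.

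*Hhip*, the hedgehog-interacting protein that binds ligand at the cell surface and whose gene is on chromosome 8, had 2 reads over all *GFP*-NSPC libraries and 5 over all *Dbx2*-NSPC libraries. It was at 0 in 12 of the 16 libraries and at most at 2 reads in any, under the floor of 3, so no fold is given.

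**Figure D3:**
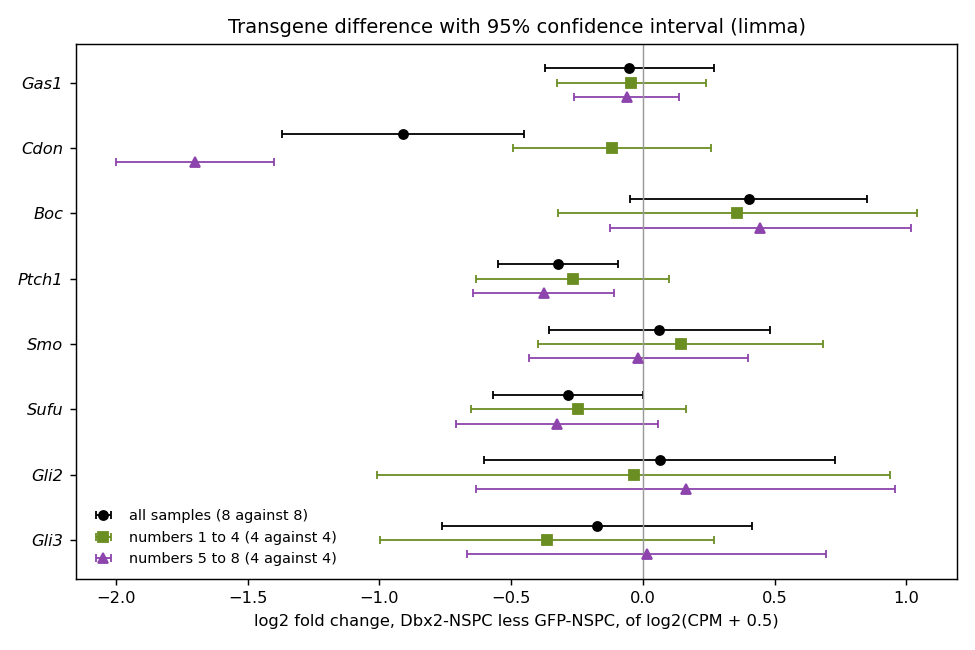
Log2 fold change of *Dbx2*-NSPCs against *GFP*-NSPCs on the log2(CPM + 0.5) scale (horizontal axis) for the 8 tested genes, over all cultures (black circles), in the numbers 1 to 4 (green squares) and in the numbers 5 to 8 (purple triangles), with 95% confidence intervals from limma as bars. *Cdon* in the numbers 5 to 8, at -1.70, lies apart from *Cdon* in the numbers 1 to 4, at -0.12, and the intervals of *Gli2* are the widest over all cultures, from -0.60 to 0.73.

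*Smo*, the membrane protein that transduces the signal, lies on the plus strand at chr6:29735503-29761365 (GRCm38). It ranged from 10.1 through a median of 18.1 to 29.4 CPM in *GFP*-NSPCs and from 12.2 through a median of 20.4 to 27.5 CPM in *Dbx2*-NSPCs. The groups overlapped over nearly their whole range, and the log2 fold change of 0.063 had a 95% confidence interval from -0.36 to 0.48 (limma, adjusted p = 0.874). *Smo* was higher in 4 of the 8 numbers and lower in the other 4.

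*Sufu*, the cytoplasmic inhibitor of the Gli proteins, lies on the plus strand at chr19:46396896-46488804 (GRCm38). It ranged from 21.2 through a median of 23.1 to 35.5 CPM in *GFP*-NSPCs and from 14.5 through a median of 20.01 to 26.2 CPM in *Dbx2*-NSPCs. The groups overlapped, and *Dbx2*-NSPCs were the lower in 7 of the 8 numbers. The log2 fold change of -0.29 ± 0.14 (SE, n = 8 per group) did not pass the test over all genes (limma, adjusted p = 0.171).

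Of the Gli transcription factors, *Gli3*, known mainly as the repressor of the family, lies on the plus strand at chr13:15463235-15730026 (GRCm38). It ranged from 6.04 through a median of 11.2 to 17.3 CPM in *GFP*-NSPCs and from 4.66 through a median of 8.25 to 19.6 CPM in *Dbx2*-NSPCs. The groups overlapped, with a log2 fold change of -0.17 and a 95% confidence interval from -0.76 to 0.41 (limma, adjusted p = 0.731). In *Dbx2*-NSPCs the numbers 6, 7 and 8, at 15.8, 17.6 and 19.6 CPM, stood above the other 5 cultures, which ranged from 4.66 to 8.79 CPM.

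*Gli2*, known mainly as an activator, lies on the minus strand at chr1:118834132-119053619 (GRCm38). It rested on 51 reads over all *GFP*-NSPC libraries and 58 over all *Dbx2*-NSPC libraries, at 0.81 to 3.33 and 1.08 to 5.42 CPM. The log2 fold change of 0.064 had a 95% confidence interval from -0.60 to 0.73 (limma, adjusted p = 0.922), and the groups overlapped.

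*Gli1*, the activator that is itself a target of the pathway, is on chromosome 10. It had 5 reads over all *GFP*-NSPC libraries and 11 over all *Dbx2*-NSPC libraries. It was at 0 in 8 of the 16 libraries, and 1 library, the *Dbx2*-NSPC culture of the number 5 with 4 reads, was above the floor, so no fold is given. Exons of *Gli1*, *Gli3*, *Hhip* and *Gas1* overlap those of genes on the opposite strand in GENCODE M21, and since the strand used in counting is not given in the sources used here, reads of these neighbours cannot be told apart from theirs.

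The RefSeq promoter entries used here gave a start site and the bases before it for 8 of the 10 genes (GRCm38.p6), and held none for *Gli1* and *Boc*. These windows of 250 bases were searched on both strands for the Gli motif GACCACCCA, for TAATTA, which many homeodomain proteins bind, and for its core TAAT, which lies within TAATTA. None of the 8 windows held the Gli motif, found in 0.225% of all 32851 RefSeq windows, and none held TAATTA, found in 4.84%. Both motifs are so rare that their absence from 8 windows is the usual case and says little about these genes. The core was in 2 windows, those of *Gli3* and *Sufu*, beside 54.9% of all windows. The window of *Ptch1* is shown as that of the called target gene, and those of *Gli3* and *Sufu* as the windows with the core, which is in capitals as it reads on the strand of the gene. The window of *Cdon* is not shown because its RefSeq start lies 30948 bases inside the GENCODE gene, where 31 bases of the window are exon. Those of *Ptch1* and *Gli3* also lie inside the longer GENCODE genes, with starts 7863 and 488 bases from the GENCODE start and no base in an exon of the gene. The coordinates are chr13:63565736-63565985 for *Ptch1* (minus strand), chr13:15463473-15463722 for *Gli3* (plus strand) and chr19:46396646-46396895 for *Sufu* (plus strand).
*Ptch1*: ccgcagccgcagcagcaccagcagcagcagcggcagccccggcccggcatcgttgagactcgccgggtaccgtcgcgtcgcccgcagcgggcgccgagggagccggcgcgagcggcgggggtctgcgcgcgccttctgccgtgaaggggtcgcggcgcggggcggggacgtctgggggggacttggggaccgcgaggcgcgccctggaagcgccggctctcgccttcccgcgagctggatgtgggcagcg
*Gli3*: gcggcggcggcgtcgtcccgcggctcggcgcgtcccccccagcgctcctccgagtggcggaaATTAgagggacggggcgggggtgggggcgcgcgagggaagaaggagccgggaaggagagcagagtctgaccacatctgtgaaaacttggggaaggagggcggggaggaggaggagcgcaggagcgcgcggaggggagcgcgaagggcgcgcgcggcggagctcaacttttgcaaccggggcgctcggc
*Sufu*: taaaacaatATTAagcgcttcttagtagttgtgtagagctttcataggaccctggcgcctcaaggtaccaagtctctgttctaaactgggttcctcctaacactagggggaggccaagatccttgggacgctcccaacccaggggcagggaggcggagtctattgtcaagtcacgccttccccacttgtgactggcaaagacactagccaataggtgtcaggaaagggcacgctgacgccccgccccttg

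The patterns of the 6 genes that averaged 10 CPM or more were set beside all other tested genes of that level by Pearson's r of log2(CPM + 0.5) over the 16 libraries, which share the division by transgene and by number. For *Cdon* the most alike were *Prss23* (r = 0.954), *Mmp14* (r = 0.946) and *Kpna4* (r = 0.911). For *Ptch1* they were *Gnaq* (r = 0.892), *Fam96b* (r = 0.869) and *Mid2* (r = 0.864), and for *Gas1* they were *Rell1* (r = 0.933), *Tead2* (r = 0.924) and *Pde3b* (r = 0.918). For *Smo* they were *Zranb1* (r = 0.902), *Mef2d* (r = 0.889) and *Armc10* (r = 0.855), for *Gli3* *Rbms3* (r = 0.866), *Fam76b* (r = 0.841) and *Tmtc3* (r = 0.836), and for *Sufu* *Fgfr1op* (r = 0.834), *Klhdc10* (r = 0.828) and *Cpsf6* (r = 0.824). Among the 6 genes themselves the highest value was that of *Gli3* and *Gas1* (r = 0.697), followed by *Smo* and *Gas1* (r = 0.528) and by *Ptch1* and *Cdon* (r = 0.503).

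Of 72 other genes of the pathway, listed by role and without *Dbx2*, 71 were in the table and 54 were tested. Over all cultures 4 were called higher and 2 lower in *Dbx2*-NSPCs, 11.1% of those tested, beside 15.8% of all genes. Blocking on the number gave 10 calls. Their median log2 fold change was 0.074. In the numbers 1 to 4 there were 6 called higher and 4 lower, 18.5% of those tested beside 15.6% of all genes. In the numbers 5 to 8 there were 7 higher and 6 lower, 24.1% beside 23.2%. For the difference between the numbers 8 were called, 14.8% beside 9.44%.

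Of the ligands, *Shh* and *Ihh* were at or under the floor in every library. *Shh* had 6 reads over all *GFP*-NSPC and 3 over all *Dbx2*-NSPC libraries and *Ihh* 5 and 0, with at most 3 reads in a library, and neither was tested. *Dhh*, the third ligand, stood at 10.9, 10.9, 9.45 and 7.66 CPM in the *GFP*-NSPCs numbered 1 to 4 and at 5.46, 2.73, 1.63 and 5.38 CPM in the *Dbx2*-NSPCs, with a log2 fold change of -1.36 in limma (adjusted p = 0.0210). These 2 groups did not overlap, as for 19.6% of all tested genes in the numbers 1 to 4 and, in the lower direction, for 10%. In the numbers 5 to 8 it was at most at 1.23 CPM, over all cultures it was not called (limma, adjusted p = 0.488), and the difference between the numbers was not called either (limma, adjusted p = 0.447). The value is uncertain, as exons of *Dhh* overlap those of *Rhebl1* on the same strand, which had a mean of 7.43 CPM. *Disp1*, which releases lipid-bearing ligand from the cell, ranged from 4.11 through a median of 6.60 to 12.0 CPM in *GFP*-NSPCs and from 7.74 through 11.7 to 20.1 CPM in *Dbx2*-NSPCs, with a log2 fold change of 0.69 ± 0.22 (SE; limma, adjusted p = 0.0415). That call was lost on leaving out 1 library for 12 of the 16, every one except *GFP*-NSPCs 1 and 4 and *Dbx2*-NSPCs 1 and 5, with adjusted limma p values of up to 0.0788, and also without the filter (0.0674) and under quantile normalization (0.0518).

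Of the other receptors and glypicans 3 were tested, and none was called in limma over all cultures. Of 10 tested genes that act on Smo at the cilium 2 were called, both higher. *Evc2*, part of a ciliary complex that passes the signal on from Smo, ranged from 8.20 through a median of 13.9 to 17.2 CPM in *GFP*-NSPCs and from 14.8 through 18.7 to 33.1 CPM in *Dbx2*-NSPCs, with a log2 fold change of 0.65 ± 0.19 (SE; limma, adjusted p = 0.0232). The groups overlapped over all cultures but not in the numbers 5 to 8, where 24.8% of all tested genes did not overlap in either direction. *Evc*, chosen after its values were seen as the partner of *Evc2*, whose start lies 1605 bases away on chromosome 5, was called higher in the numbers 5 to 8, by 0.73 on the log2 scale (limma, adjusted p = 5.08e-04), but not over all cultures (limma, adjusted p = 0.0900).

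Of 16 tested genes of Gli processing and degradation, only *Dyrk2* was called over all cultures. This kinase phosphorylates Gli proteins. It ranged from 23.0 through a median of 38.2 to 45.9 CPM in *GFP*-NSPCs and from 17.6 through 20.8 to 32.5 CPM in *Dbx2*-NSPCs, lower in 8 of 8 numbers, with a log2 fold change of -0.72 ± 0.15 (SE; limma, adjusted p = 0.00279). Of 14 genes of ciliary transport none was called in limma over all cultures. Of 7 tested further Gli targets 1 was called, *Ccnd1*, the cyclin of early G1 phase, which ranged from 2948 through 3298 to 3958 CPM in *GFP*-NSPCs and from 3858 through 4004 to 4289 CPM in *Dbx2*-NSPCs, with a log2 fold change of 0.27 ± 0.074 (SE; limma, adjusted p = 0.0169). Under quantile normalization its log2 fold change was 0.10 and the call was lost (limma, adjusted p = 0.303), as it was without the filter (limma, adjusted p = 0.0990).

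Among the neural tube factors that hedgehog signals repress in the embryo, *Pax6* was lower in *Dbx2*-NSPCs. It ranged from 35.5 through a median of 43.8 to 50.0 CPM in *GFP*-NSPCs and from 18.6 through 26.6 to 30.6 CPM in *Dbx2*-NSPCs. The groups did not overlap, which held for 3.41% of all tested genes over all cultures and in the lower direction for 1.81%. Its log2 fold change was -0.74 ± 0.12 (SE, n = 8 per group; limma, adjusted p = 2.50e-04), and it was -0.76 in the numbers 1 to 4 and -0.73 in the numbers 5 to 8, both called.

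The proliferation list, given for the state of the cultures, had 2 of 7 genes called lower over all cultures, *Ccna2* and *Ccnb1*, and none higher, beside 7.78% of all genes called lower and 15.8% called in either direction. Of the marker lists for cell types, that of neural stem and progenitor cells had 3 of 7 called lower, *Egfr*, *Fabp7* and *Slc1a3*, that of neuroblasts and neurons 1 of 5 lower, with *Dcx* and *Rbfox3* called in opposite directions in the numbers 1 to 4 and 5 to 8 as above, that of astrocytes 2 of 5 higher and 1 lower, that of ependymal cells 2 of 3 higher, and that of the oligodendrocyte lineage 0 of 3 in limma. Their part in the levels of the 10 genes was not tested.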

How the data were processed

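The 16 RNA samples, 8 *Dbx2*-NSPC and 8 *GFP*-NSPC cultures, had been sequenced from the 3′ end (QuantSeq). The authors checked reads with FastQC 0.11.8, trimmed them with bbduk and aligned them with STAR 2.5.0a to GRCm38 with Ensembl annotation 96. The counting tool and its strand are not given in the sources used here. The deposited values are CPM with 2 decimals in a single table of 30386 genes, of which 0 sample columns were left out. Columns summed to 999484.7 to 999613.8 CPM, and 100% of the values above 0 were whole reads within 0.0052 CPM, by which reads were recovered.

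The members and gene lists were chosen with earlier results of these data known. Genes over 1 CPM in at least 4 of 16 samples (12533) entered 2-sided tests by limma 3.58.1 (R 4.3.3; lmFit, eBayes with trend) of log2(CPM + 0.5), adjusted by Benjamini-Hochberg over all tested genes, with 0.05 as the threshold. Samples were grouped by the transgene in the labels. The covariate for the cell line was not fitted, as the labels do not give it. Beside the 10 members, the text names up to 4 called genes of each list with the smallest adjusted p over all samples, *Shh*, *Ihh*, *Dhh*, *Dbx2* and the 3 genes most like each member (2 genes named by this rule are not reported here); *Nes*, *Dcx*, *Rbfox3*, *Evc* and markers at 0 are named outside that rule. The replicate number in the labels is the source of the block. Deviations from the group means correlated in every same-numbered pair (r = 0.152 to 0.303, mean 0.226). Cultures of other numbers in the same set correlated nearly as much (mean r = 0.199). From the means of group and number set, r of same-numbered pairs was only -0.0074 to 0.119. The main fits did not pair cultures, and the block on the number was run as an alternative. No 2 libraries agreed within sampling noise (lowest chi-square per degree of freedom 2.36). Alternatives were pseudocounts of 0.1 and 2, no filter or over 1 CPM in at least 8 samples, the replicate block, eBayes without trend, quantile or median-of-ratios scaling, the number set as a covariate, edgeR 4.0.16 (also with that covariate) and DESeq2 1.42.0 on recovered reads, and each library left out. Scripts were tested on simulated data. Positions came from GENCODE M21 and promoter windows from RefSeq.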

Additional observations from a re-analysis of the deposited data

Results flagged for a closer look

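Of 48 groups of samples tested for a culture far from the others, 2 held one, and chance alone marks about 1 in 20 groups. *Sufu* stood at 35.46 CPM in the *GFP*-NSPC culture of the number 5, above 21.18 to 25.95 CPM in the other 7. *Gli2* stood at 2.05 CPM in the *GFP*-NSPC culture of the number 7, below 2.76 to 2.88 CPM in the other 3 of the numbers 5 to 8. The fold change of *Cdon* in the numbers 5 to 8 differed from that in the numbers 1 to 4 by -1.58 on the log2 scale (limma interaction, adjusted p = 2.08e-05). What the numbers 1 to 4 or 5 to 8 share is not given in the labels, so line, experiment and number cannot be told apart.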

How the results depend on the processing

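Of the 10 genes, 2 were called over all cultures. Only 1, *Cdon*, was called without a filter, with median-of-ratios or quantile scaling, or with eBayes without trend. The same held for the replicate block, for edgeR without a covariate and for DESeq2. Both calls stayed with the number set as a covariate, in limma and in edgeR, with either other pseudocount and with the stricter filter. With 1 library left out, 1 to 2 were called. In the numbers 5 to 8 the 2 calls became 1, *Cdon*, with median-of-ratios or quantile scaling, the replicate block, edgeR or DESeq2, and 1 to 2 with 1 library left out. *Cdon* was called in every alternative over all cultures, in the numbers 5 to 8 and for the difference between the numbers, with adjusted p of at most 0.0205, 3.38e-04 and 3.58e-04 in limma, edgeR or DESeq2. No gene of the 8 was called in the numbers 1 to 4 under any alternative run. Of the other pathway genes 6 were called, 10 with the replicate block and 11 with the number set as a covariate. With no filter 4 were called. The block changed no other call of the 10 genes.

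Among differences that passed no test, the sign turned for *Gli2* over all cultures under quantile scaling (-0.065) and for *Smo* in the numbers 5 to 8 under median-of-ratios scaling (0.0013). With 1 library left out, log2 values crossed 0 over all cultures for *Gas1* (-0.13 to 0.021), *Gli2* (-0.092 to 0.18) and *Smo* (-0.062 to 0.16), in the numbers 1 to 4 for *Cdon* (-0.26 to 0.011), *Gas1* (-0.12 to 0.037), *Gli2* (-0.30 to 0.22) and *Smo* (-0.047 to 0.29), in the numbers 5 to 8 for *Gli2* (-0.095 to 0.41), *Gli3* (-0.16 to 0.38) and *Smo* (-0.18 to 0.089), and for the difference between the numbers for *Boc* (-0.10 to 0.28), *Gas1* (-0.098 to 0.060), *Gli2* (-0.061 to 0.46), *Smo* (-0.32 to 0.030) and *Sufu* (-0.20 to 0.059). The cause of these changes was not tested. *Gli1*, *Hhip* and *Gli2* rested on few reads, as given above.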
